A study of Mus musculus with 2 samples.

Results

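CD4 T cells were examined in single-cell RNA data of tumours from the KPPC mouse, an engineered model of pancreatic ductal cancer. The series holds 2 libraries, 1 of a tumour suspension from mice given vehicle and 1 from mice given takinib at 50 mg/kg, an inhibitor of the kinase TAK1. Per the labels both groups were 6 weeks old and were treated for 14 days. The labels give neither the number of mice in a library nor the alleles behind the name KPPC. With 1 library per group no test of treatment was possible, no difference has a replicate check, and values in square brackets are the bounds of 95% intervals for counting error alone.

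A cell was kept with at least 1000 UMIs (molecular barcodes that count captured transcripts), at least 500 genes and at most 20% mitochondrial UMIs. A kept cell counted as a CD4 T cell if it held at least 2 UMIs over Cd3e, Cd3d, Cd3g, Trac and Trbc2, at least 1 Cd4 UMI and none of Cd8a or Cd8b1. It also had to be free of Trdc, Il17a, Cd79a and the 3 C1q transcripts, with S100a8 and S100a9 under 3% of its UMIs. This gave 68 CD4 T cells of 36662 kept cells, 26 of 9872 in vehicle and 42 of 26790 in takinib. The cells were thus chosen by the measured counts of these genes, whose levels are description only.

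CD4 T cells recognise peptides on MHC class II molecules through the T cell receptor and steer other immune cells with cytokines and surface ligands. A subset that expresses the transcription factor Foxp3, the regulatory T cells, restrains immune responses and is common in pancreatic tumours. TAK1, encoded by Map3k7, links the T cell receptor and cytokine receptors to NF-kB and to the MAP kinases that act on AP-1.

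CD4 T cells made up 0.263% [0.172, 0.386] of kept cells in vehicle and 0.157% [0.113, 0.212] in takinib, and these intervals overlap. CD8 T cells, gated in the same way with a Cd8a or Cd8b1 UMI in place of Cd4, made up 0.243% [0.156, 0.362] in vehicle (24 cells) and 0.929% [0.818, 1.05] in takinib (249 cells). CD4 cells were therefore 52.0% [37.4, 66.3] of the CD4 and CD8 cells in vehicle and 14.4% [10.6, 19.0] in takinib. A further 139 vehicle and 286 takinib T cells held a UMI of neither co-receptor. This is 73.2% and 49.3% of the 190 and 580 T cells that passed the gate limits on other cell types. Neutrophils, taken as cells with at least 3% of UMIs from S100a8 and S100a9, numbered 134 in vehicle and 12578 in takinib and enter the denominator. As a share of kept cells outside them, CD4 T cells were 0.267% in vehicle and 0.296% in takinib, so the order of the libraries turned with the denominator.

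**Figure D1:**
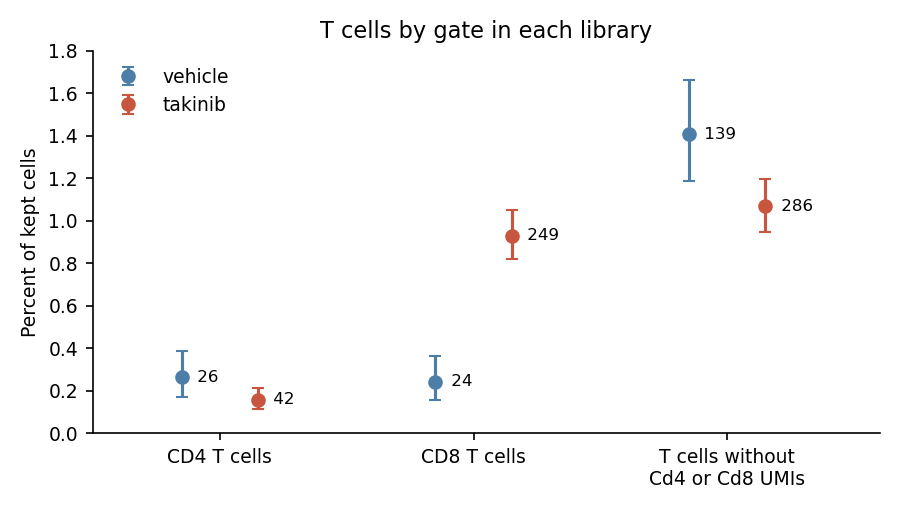
Percent of kept cells in each T cell gate (y axis) for the vehicle and takinib libraries, with exact 95% intervals as bars and the number of cells beside each point. CD4 intervals overlap (0.172 to 0.386% and 0.113 to 0.212%), while CD8 cells stand at 0.243% in vehicle and 0.929% in takinib.

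The gate removed many T cell barcodes. Of the barcodes with at least 2 T cell UMIs, 150 of 340 in vehicle and 700 of 1280 in takinib failed a limit on another cell type, mostly through C1q UMIs (139 and 451) and, in takinib, S100a8 and S100a9 (2 and 209). Just inside the gate, 4 vehicle and 5 takinib CD4 cells held exactly 2 T cell UMIs and 20 and 31 held exactly 1 Cd4 UMI. Just outside it, 3 and 10 cells met all other limits with 1 T cell UMI, and 6 and 13 missed it by 1 C1q UMI.

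The cells were shallow, and in takinib a few deep cells held most of the RNA. Median depth was 1558 UMIs in vehicle (1036 to 7338) and 1625.5 in takinib (1008 to 24936). Cells over 3000 UMIs numbered 3 in vehicle, with 30.8% of the 51196 UMIs, and 12 in takinib, with 72.1% of the 166240. Median mitochondrial share was 13.1% and 2.86%. Xist, the RNA of the inactive X chromosome, was seen in 2 vehicle and 30 takinib cells, and Y-linked UMIs in 7 and 0. The libraries shared 400 barcodes among kept cells and 0 among CD4 T cells.

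RNA of other cell types differed between the libraries inside the gate. The 8 neutrophil markers gave 137 CPM (UMIs scaled to a common library total) in vehicle, with 3 of 8 detected in 7 of 26 cells, and 4957 CPM in the takinib cells, with 8 of 8 detected in 41 of 42 cells. The 10 macrophage markers summed to 1445 and 1769 CPM. B and plasma markers reached 6348 CPM in vehicle, where 1 cell held most of them, against 199 CPM in takinib. CD8 and NK markers were at 0 in vehicle and 72.2 CPM in takinib. Cells with over 1% of their UMIs from another type's marker list numbered 1 in vehicle and 8 in takinib, and values without these 9 cells, chosen after the data were seen, stand beside the results as those of the cleaner cells (25 vehicle and 34 takinib).

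T cell identity was checked on genes outside the gate. Transcripts of 15 proteins of T cell receptor signalling, such as the kinases Lck and Zap70, the adaptor Lat and the receptors Cd2, Cd5, Cd6 and Cd28, were present in 26 of 26 vehicle cells and 42 of 42 takinib cells. The list includes Ptprc (CD45), which other leukocytes express as well. Without Ptprc, Lcp2 and Fyn, left out after the values were seen, the other 12 genes had a UMI in 26 of 26 vehicle and 41 of 42 takinib CD4 T cells, against 57 of 244 and 448 of 1353 B cells and 413 of 4096 and 542 of 4208 macrophages. Summed over the 12 genes, vehicle CD4 T cells had 2285 CPM and takinib CD4 T cells 1438 CPM, while B cells had 123 and 109 CPM. Icos, a co-stimulatory receptor of activated T cells, had a UMI in 10 of 26 vehicle cells (38.5% [20.2, 59.4]) and 14 of 42 takinib cells (33.3% [19.6, 49.5]), against 0 of 244 vehicle B cells and 4 of 1353 takinib B cells (0.296%). B cells were deeper, with medians of 2103 and 2697 UMIs. CD8 T cells had a UMI of the 12 genes in 21 of 24 vehicle and 232 of 249 takinib cells, at 942 and 1355 CPM. These transcripts thus match the label T cells and do not set CD4 apart from CD8 T cells. The CD4 part of the label rests on the gate. A Trbv segment of the T cell receptor beta chain was seen in 11 vehicle and 22 takinib cells, spread over 10 and 15 segments, with the most common segment in 2 and 3 cells.

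Foxp3 marked a small group in each library. It had a UMI in 5 of 26 vehicle cells (19.2% [6.55, 39.4]) and 5 of 42 takinib cells (11.9% [3.98, 25.6]), with 8 and 12 UMIs in all. After each cell was thinned to 1000 UMIs the counts were 3 and 4 cells. Foxp3 was seen in 0 of 24 and 0 of 249 CD8 T cells, and in 0 of 244 vehicle and 6 of 1353 takinib B cells (0.443%), so the CD4 shares lay above this background. The intervals of the libraries overlap, and a difference between them was not detectable at this depth. Foxp3 also had a UMI in 6 of 139 vehicle and 11 of 286 takinib T cells without a co-receptor UMI.

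Foxp3-positive cells carried more transcripts of the regulatory program. The list of 21 genes, which leaves out Foxp3, includes the high-affinity interleukin 2 receptor chain Il2ra, the inhibitory receptor Ctla4, the transcription factor Ikzf2 (Helios) and the TNF receptor family members Tnfrsf4 (OX40), Tnfrsf18 (GITR), Tnfrsf9 (4-1BB) and Tnfrsf1b. In vehicle the 5 Foxp3-positive cells held 15, 2, 16, 16 and 54 UMIs of the list, in order of rising depth, which is 1.448, 0.166, 1.01, 1.01 and 0.736% of the cell. The 21 Foxp3-negative cells ranged from 0 to 0.547% with a median of 0.0829%. There 4 of 5 positive cells lay above every negative cell, and 6 negative cells lay above the lowest positive cell. In takinib the 5 positive cells held 5, 5, 4, 58 and 84 UMIs, or 0.439, 0.397, 0.311, 0.896 and 0.691%. The 37 negative cells ranged from 0 to 1.02% with a median of 0.0791%. Here 0 of 5 positive cells lay above every negative cell, and 5 negative cells lay above the lowest positive cell. The groups thus overlapped in both libraries.

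**Figure D2:**
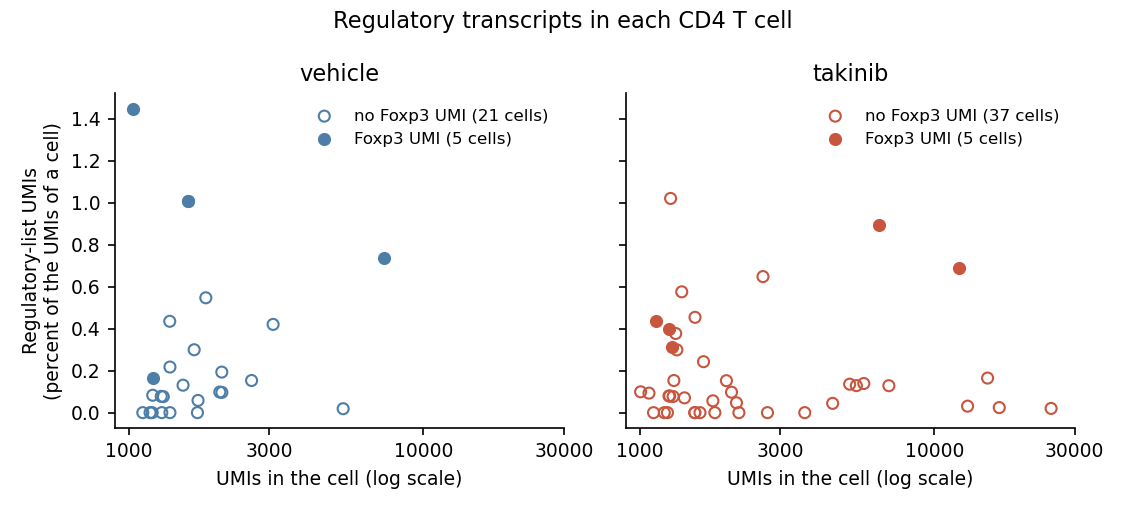
Each point is 1 CD4 T cell, with its depth in UMIs on a log x axis and the percent of its UMIs from the 21 regulatory genes on the y axis. Filled points hold a Foxp3 UMI. All 10 filled points lie above the median of the open points of their library (0.0829% and 0.0791%). Some open points in each library lie above the lowest filled point.

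Gene by gene the direction was the same in both libraries. Counts were summed over Foxp3-positive and over Foxp3-negative cells of a library, and a gene was compared if its mean CPM was at least 100. Values are log2 ratios with 50 CPM added to both sides, and a gene past the fold has a log2 ratio above 1 or below -1. Of all genes compared, 17.7% lay past the fold on the higher side in takinib and 31.5% in vehicle, and 6.31% and 6.85% on the lower side, in sums over 5 positive cells. Of 8 regulatory genes compared in both libraries, 8 were higher in Foxp3-positive cells in both and 7 were past the fold in both, beside 437 and 47 of all 1083 genes compared in both. Of the regulatory genes compared, 5 of 9 in takinib and 3 of 11 in vehicle reached 100 CPM in the positive cells alone and so passed the filter through the group where they are high. The count and the list median below are therefore description, and the shares per cell above use all 21 genes with no filter. Among genes compared, the list median was 2.49 in takinib and 1.96 in vehicle, where all genes had medians of 0.28 and 0.46.

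Ikzf2 stood at 1804 CPM in positive and 104 CPM in negative vehicle cells (23 and 4 counts) and at 896 and 111 CPM in takinib (20 and 16 counts). Tnfrsf4 stood at 1255 and 130 CPM in vehicle and at 1344 and 104 CPM in takinib, a ratio of 9.65 [3.38, 33.7] and 12.9 [6.72, 25.8]. Il2ra gave ratios of 10.5 [2.01, 104] and 9.31 [3.68, 24.7]. Among all cells the positive group was higher for these 3 genes in both libraries, but with cells free of UMIs of other types alone the log2 ratio was -1.12 for Il2ra in vehicle and -2.42 for Tnfrsf4 in takinib, and under a stricter gate -0.48 for Tnfrsf4 in takinib. Ikzf2 in takinib was at -0.091 in cells thinned to 1000 UMIs. Ctla4 gave 5.28 [1.34, 24.6] and 5.77 [2.82, 11.7], and was seen in 4 of 5 positive cells of each library. Tnfrsf18 gave 4.35 [1.72, 11.5] and 6.91 [3.11, 15.4], and Tnfrsf9 gave 6.03 [1.29, 37.3] and 11.1 [5.04, 25.9]. Capg, an actin-capping protein, was past the fold in takinib alone (log2 ratio 2.27 against 0.89), and the difference between libraries was not tested. Tnfrsf4 and Tnfrsf18 are neighbours on chromosome 4 (GRCm38.p6, 156013595 to 156016613 and 156026322 to 156028894).

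**Figure D3:**
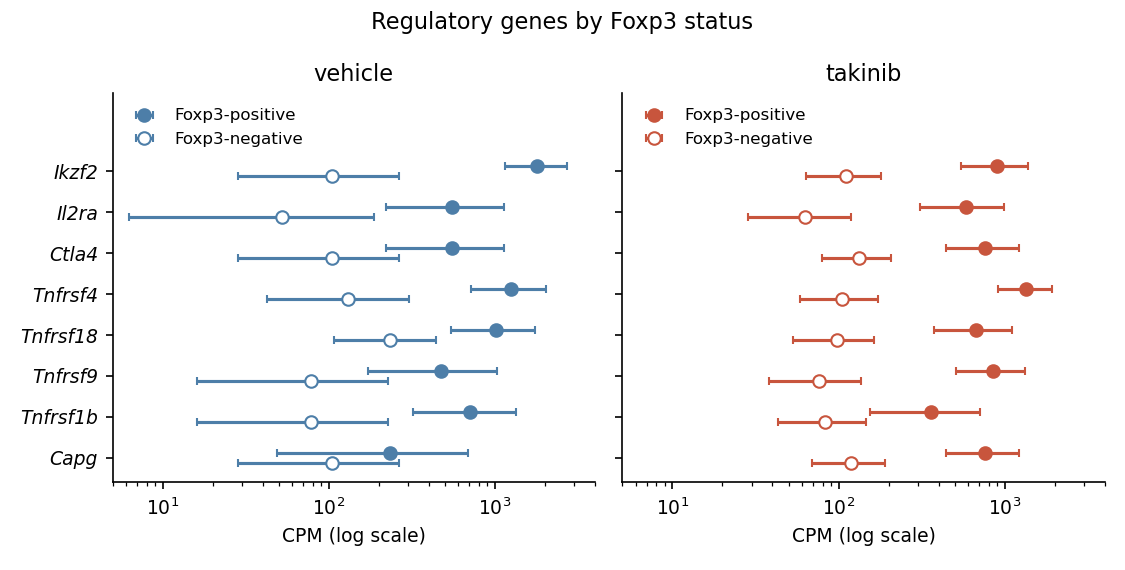
CPM on a log x axis of the 8 regulatory genes compared in both libraries, summed over Foxp3-positive (filled) and Foxp3-negative (open) cells, with exact Poisson 95% intervals. Filled points lie to the right of open points in all 16 pairs, and the intervals of Ctla4, Tnfrsf9 and Capg in vehicle overlap.

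These sums rested on few cells in both libraries. In vehicle a single positive cell supplied 15 of 23 Ikzf2, 6 of 7 Il2ra, 8 of 13 Tnfrsf18 and 6 of 9 Tnfrsf1b counts. In takinib a single positive cell likewise supplied most counts of a gene, with 26 of 30 for Tnfrsf4, 18 of 20 for Ikzf2, 13 of 17 for Ctla4 and 12 of 15 for Tnfrsf18. Without the deepest cell of each arm Tnfrsf4 and Tnfrsf18 had log2 ratios of 3.89 and 2.88, and Il2ra 2.11. Tnfrsf1b, with 8 of 8 positive-cell counts from 1 cell, turned from 1.61 to -1.51 there. Among cells of 1000 to 3000 UMIs, where 3 takinib cells held Foxp3, Tnfrsf4 and Tnfrsf18 had log2 ratios of -1.27 and -2.51, and Il2ra had 0.75, no longer past the fold. The 10 highest genes were Mmp12, Car4, Clec4n, Slc7a2, AA467197, Csta2, Tnfrsf4, Fn1, Cd38 and Gzmb. Mmp12, Car4, Clec4n, Slc7a2, Csta2, Fn1, Cd38 and Gzmb each came from 1 positive cell (32, 21, 17, 17, 16, 42, 10 and 10 counts). The deepest positive cell, of 12163 UMIs, held 0.724% of its UMIs from the macrophage markers, the highest share among the positive takinib cells. The part of macrophage RNA in these genes was not tested. With the deepest cell of each arm left out, Mmp12 had a log2 ratio of -0.22, Clec4n -0.22, Fn1 -2.47 and Gzmb -0.42.

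The genes lowest in Foxp3-positive takinib cells were Plac8, Neat1, Slpi, Dmbt1, Klf2, Snhg3, Ms4a4b, Ifitm1, Ngp and Car1. Klf2, a transcription factor of resting and recirculating T cells, had 0 counts in the 5 positive cells and 48 in 17 of 37 negative cells, 334 CPM. Ms4a4b, a membrane protein of T cells, had 0 and 33 counts, the latter in 20 cells. Both lay under -1 under each of 16 other settings. Ngp, Slpi and Ifitm1 were uneven, with 57 of 63, 54 of 109 and 38 of 65 negative-cell counts in 1 cell. The gate genes S100a8 and S100a9, given as description, were also lower in positive cells (941 against 2474 CPM and 403 against 2481 CPM). The part of neutrophil RNA here was not tested. In vehicle Klf2 had 2 and 7 counts, a log2 ratio of -0.17. The proliferation list had medians of -0.83 in takinib and 1.85 in vehicle, and the immediate-early list -0.66 and 2.08; whether the libraries differ there was not tested.

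Several cytokine and transcription factor genes of helper subsets were at or near the limit of detection. Ifng, Tbx21, Il4 and Il21 each had 1 UMI in takinib and 0 in vehicle, and Il5, Il13, Il9 and Cxcr5 had 0 in both. A count of 0 allows a level of up to 58.6 CPM in the vehicle cells and 18.0 CPM in the takinib cells, and does not limit the share of cells that express the gene. Other members of these lists were seen more often. Maf, a transcription factor of follicular helper and other T cells, had 15 UMIs in vehicle and 20 in takinib, and the interleukin 18 receptor chain Il18r1 had 4 and 17. Summed over their lists, Th1 genes had 14 and 56 UMIs, Th17 genes 47 and 47, and follicular helper genes 27 and 39.

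The comparison of takinib with vehicle covered 1466 genes, of which 9.69% were past the fold on the higher side and 7.09% on the lower side, with a median log2 ratio of 0.04. Map3k7, which encodes the target of takinib, had 4 counts in takinib and 1 in vehicle, 24.1 and 19.5 CPM. Tab2, an adaptor of TAK1, was at 138 and 117 CPM, a ratio of 1.18 [0.47, 3.54].

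Immediate-early genes, which are transcribed within minutes of a stimulus, were higher in sum in the takinib library. All 18 listed genes, with no filter, had 66 UMIs in vehicle (1289 CPM) and 597 in takinib (3591 CPM), and the median share per cell was 0.103% and 0.358%. Of 18 listed genes 11 were compared, 6 were past the fold on the higher side and 0 on the lower side, and the median log2 ratio was 1.12. Of these 11 genes 8 reached 100 CPM in takinib alone, 5 of the 6 past the fold among them. They passed the filter through the group where they are high, so the count and the median are description only. Junb, a subunit of AP-1, had 116 counts in takinib (698 CPM) and 5 in vehicle (97.7 CPM), a ratio of 7.14 [2.98, 22.4]. At 1000 UMIs a cell it was seen in 26 of 42 takinib cells and 2 of 26 vehicle cells. Zfp36, which speeds decay of cytokine mRNAs, had 48 and 0 counts. Its takinib level was 4.93-fold the 58.6 CPM that a vehicle count of 0 allows, with no counting error of takinib included. Fos, the partner of Jun proteins, had 40 and 2 counts, a ratio of 6.16 [1.60, 52.6], and the MAP kinase phosphatase Dusp1 had 70 and 6, a ratio of 3.59 [1.57, 10.1]. Ier3 had 45 and 0 counts, 4.62-fold the same limit, and Ier2 had 31 and 3.

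NF-kB target genes were also higher in sum. All 22 listed genes had 72 UMIs in vehicle (1406 CPM) and 1430 in takinib (8602 CPM), of which Cxcl2 gave 2 and 798, and the median share per cell was 0.123% and 0.248%. Of 22 listed genes 10 were compared, 5 were past the fold on the higher side and 0 on the lower, with a median of 1.06. Here 5 of the 10 passed the filter through takinib alone, 4 of the 5 past the fold among them. The count and the median are again description only. Nfkbia, the inhibitor that NF-kB induces against itself, had 103 counts in takinib (620 CPM [506, 751]) and 12 in vehicle (234 CPM [121, 409]), a ratio of 2.64. Bcl2a1d, an anti-apoptotic gene, had 36 and 0 counts, 3.70-fold the 58.6 CPM that a vehicle count of 0 allows. It is nearly identical to its paralog Bcl2a1b (67 and 10 counts), so the split between them is uncertain. The chemokine genes Cxcl2 (798 and 2 counts) and Ccl4 (37 and 0) and the cytokine gene Il1b (175 and 1) were past the fold as well. In neutrophils Cxcl2 was at 22797.5 CPM in takinib and 3398 CPM in vehicle, and Il1b at 5374 and 3431 CPM. The part of neutrophil RNA in the summed list was not tested. Nfkb1 was at 144 and 195 CPM, a ratio of 0.74 [0.34, 1.73].

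Both lists had lower medians in the cleaner cells. The cells left out there include 5 takinib and 1 vehicle cell over 3000 UMIs, and the parts of depth and of other cells' RNA were not tested. With cells free of UMIs of other types alone, Junb had a log2 ratio of 1.66 and Fos 2.82. In the cleaner cells, where 9.95% of genes were past the fold higher and 8.74% lower, 1 of 5 immediate-early genes and 3 of 9 NF-kB genes compared were past it on the higher side and 0 on the lower. The immediate-early median was 0.38 and the NF-kB median 0.76. Junb (log2 ratio 1.71) and Bcl2a1d (2.46) stayed past the fold there. Zfp36 had 16 and 0 counts (1.76) and was under the filter, as were Fos (0.65), Ier3 (0.92) and Egr1, while Dusp1 (0.62) and Nfkbia (0.76) were no longer past the fold. Egr1, another immediate-early gene, turned from 0.69 to -0.65. Cxcl2 had 111 of its 798 takinib counts there. The list medians were above 0 under each of 17 other settings, from 0.38 to 2.26 for immediate-early and from 0.61 to 2.61 for NF-kB genes. In the main comparison 8 of 11 and 5 of 10 of these genes had passed the CPM filter through takinib alone. The filter thus favours a positive median, and these medians are description only.

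**Figure D4:**
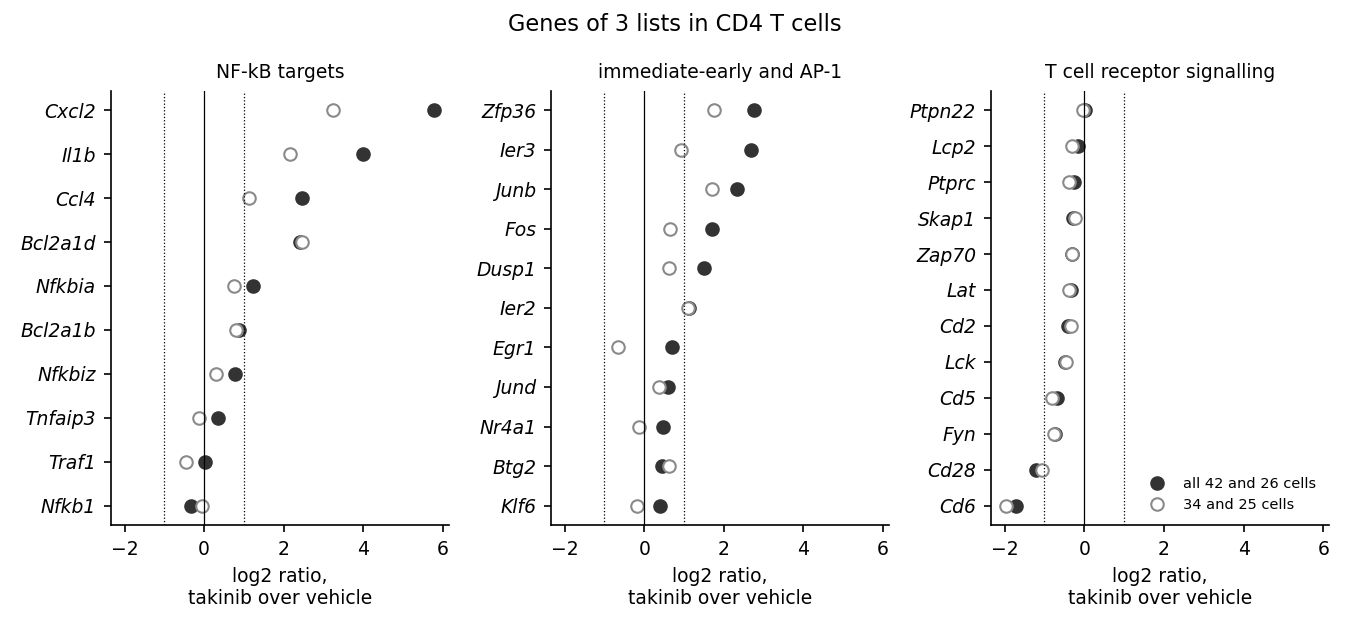
Log2 ratio of takinib over vehicle (x axis) for each compared gene of 3 lists, in all CD4 T cells (filled) and in the cleaner cells (open, also where the gene was under the filter there); dotted lines mark -1 and 1. Cxcl2 and Il1b lie farthest right, Junb is past 1 in both sets, and 11 of 12 T cell receptor signalling genes lie below 0 in all cells.

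The same direction was seen outside CD4 T cells. In CD8 T cells the NF-kB and immediate-early medians were 1.66 and 1.65, and in B cells, taken as cells with at least 2 Cd79a UMIs, 1.86 and 1.24. Junb was at 147 CPM in vehicle and 866 CPM in takinib CD8 cells, and at 217 and 1041 CPM in B cells. Cxcl2 was at 7653 CPM in takinib B cells and 3074 CPM in takinib CD8 cells. The 3 cell sets come from the same 2 libraries, so these values are no independent support.

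Nfkbia and Cxcl2 promoters are shown because both genes were past the fold and hold a 9-letter kB-type motif, GGNNTTTCC, on either strand; the Tnfrsf9 promoter is shown for the Foxp3-positive cells. Sequences are from RefSeq, build GRCm38.p6, 5′ to 3′ on the strand of the gene, from 250 bases before to 50 after a start site, with motif matches in capitals. The motif was chosen after the values were seen, and 4 others were searched.
Nfkbia, chr12:55492598-55492897, minus strand: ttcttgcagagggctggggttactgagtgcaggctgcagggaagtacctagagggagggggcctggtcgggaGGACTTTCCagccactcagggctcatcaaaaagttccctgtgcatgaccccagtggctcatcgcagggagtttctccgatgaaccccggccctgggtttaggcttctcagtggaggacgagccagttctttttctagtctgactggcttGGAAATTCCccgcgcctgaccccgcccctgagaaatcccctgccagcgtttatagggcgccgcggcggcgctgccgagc
Cxcl2, chr5:90903649-90903948, plus strand: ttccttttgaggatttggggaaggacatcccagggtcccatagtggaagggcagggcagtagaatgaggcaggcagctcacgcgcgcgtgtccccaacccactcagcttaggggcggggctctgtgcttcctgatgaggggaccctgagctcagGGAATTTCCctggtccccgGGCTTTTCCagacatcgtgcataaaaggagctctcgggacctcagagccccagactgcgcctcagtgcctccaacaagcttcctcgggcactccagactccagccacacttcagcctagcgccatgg
Tnfrsf9, chr4:150927749-150928048, plus strand: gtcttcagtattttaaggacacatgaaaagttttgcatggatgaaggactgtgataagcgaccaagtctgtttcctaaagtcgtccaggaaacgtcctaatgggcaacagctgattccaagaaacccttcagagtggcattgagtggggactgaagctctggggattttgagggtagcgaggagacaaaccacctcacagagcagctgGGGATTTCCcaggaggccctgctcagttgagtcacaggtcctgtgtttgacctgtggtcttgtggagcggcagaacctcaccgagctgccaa

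Matches begin at bases 73 and 222 of the Nfkbia window, 155 and 174 of the Cxcl2 window and 209 of this Tnfrsf9 window. A second Tnfrsf9 start had none. Of the other NF-kB genes past the fold, Bcl2a1d and Il1b had none and Ccl4 was not among the promoters. Junb and Zfp36 had none either. For the kB motif, of the 22 NF-kB target genes 17 were found in the promoter table and 8 of them held the motif. These gave 10 of 23 promoters, among which overlapping Nfkb2 windows share a match. The motif was in 5.82% of all 32851 promoters. It was also in 2 of 20 immediate-early and 3 of 17 regulatory promoters. The longer form with 1 more G in front was held by 8 of 23 NF-kB, 0 of 20 immediate-early and 1 of 17 regulatory promoters and 1.63% of all. For NF-kB, immediate-early and regulatory promoters in this order, the AP-1 motif TGANTCA was in 5 of 23, 0 of 20 and 1 of 17 (7.81% of all). The cyclic AMP motif TGACGTCA was in 1 of 23, 2 of 20 and 1 of 17 (1.79% of all), and the forkhead motif TGTTTAC in 0 of 23, 1 of 20 and 1 of 17 (3.65% of all). A match describes letters in the window and shows no binding.

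T cell receptor signalling genes were slightly lower in takinib as a list. Of 12 compared, 11 had a log2 ratio below 0, with a median of -0.37, and 2 were past the fold, Cd6 and Cd28, which reached 100 CPM in vehicle alone. Cd6, a scavenger-type receptor that tunes T cell receptor signals, had 10 counts in takinib (60.2 CPM) and 16 in vehicle (313 CPM), a ratio of 0.19 [0.08, 0.45]. Cd28, the main co-stimulatory receptor, had 12 and 12 counts, 72.2 and 234 CPM, a ratio of 0.31 [0.13, 0.75]. The intervals of the other 10 genes included 1, as for Lck (0.67 [0.36, 1.30]) and Lat (0.76 [0.44, 1.37]). Cd28 had a log2 ratio of 0.02 in cells of 1000 to 3000 UMIs. The list median ranged from -0.79 to 0.08 over 17 other settings and was above 0 in 1 of them. In CD8 T cells the list median was 0.20 over 6 genes.

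Regulatory genes had a median of -0.63 over 10 compared, with 4 past the fold on the lower side. These were Izumo1r (folate receptor 4; 8 and 13 counts), Ikzf2 (36 and 27), Gata3 (10 and 10) and Tnfrsf18 (29 and 22), of which Izumo1r and Gata3 reached 100 CPM in vehicle alone. Ctla4 (217 and 215 CPM) and Tnfrsf9 (180 and 176 CPM) were level. Ikzf2 turned to 0.32 without vehicle cells that held Y-linked UMIs, and Tnfrsf18 turned to 0.47 when cells were thinned to 1000 UMIs. Icos was at 132 CPM in takinib and 293 CPM in vehicle, a ratio of 0.45 [0.22, 0.94], and the shared cytokine receptor chain Il2rg at 241 and 469 CPM, a ratio of 0.51 [0.30, 0.89].

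Of the naive and recirculating genes 6 were compared and 0 were past the fold, with a median of -0.72; Tcf7 and Satb1 had log2 ratios of -0.75 and -0.83 and Il7r 0.47. Activation genes had a median of -0.66. Naive and activation medians were each above 0 under 2 of 17 other settings, and the regulatory median under 1. Proliferation genes had a median of 0.39 with 0 of 8 past the fold, and Mki67 was seen in 3 vehicle and 7 takinib cells. Of 3 interferon-response genes compared, Ifi27l2a (58 and 72 counts, 30 of the latter in 1 cell; ratio 0.25 [0.17, 0.36]) and Gbp7 (10 and 9) were past the fold on the lower side. Ifi27l2a had a log2 ratio of -0.18 in cells of 1000 to 3000 UMIs, -0.82 as a mean over cells and -0.88 without cells that hold UMIs of other types. Tmem176a and Tmem176b, ion channel proteins listed here with Th17 genes and also found in myeloid cells, were at 66.2 and 60.2 CPM in takinib and 391 and 293 CPM in vehicle.

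**Figure D5:**
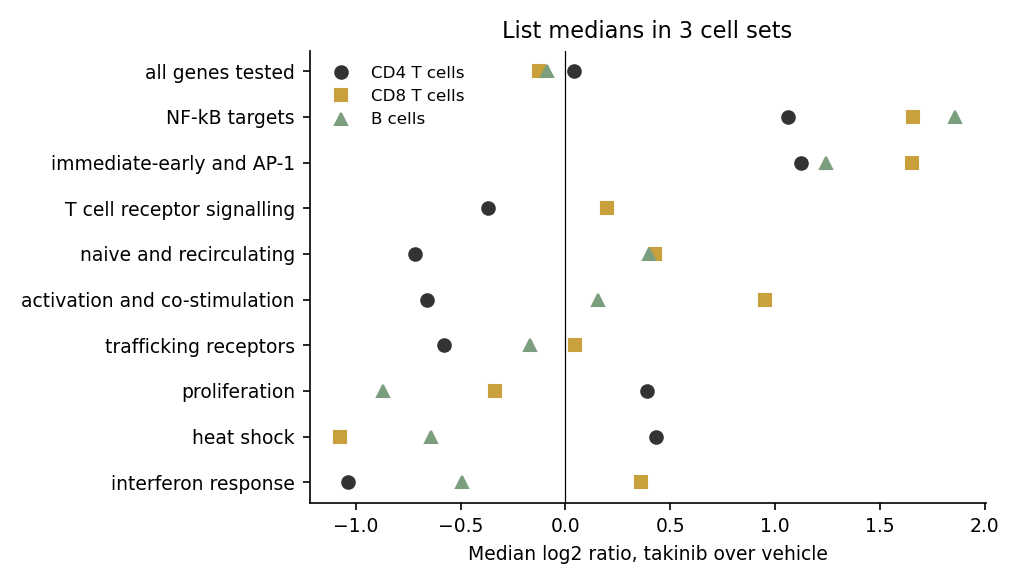
Median log2 ratio of takinib over vehicle (x axis) for gene lists with at least 2 genes compared, in CD4 T cells, CD8 T cells and B cells. NF-kB and immediate-early medians lie right of 1 in all 3 sets; the T cell receptor, naive and activation medians lie left of 0 in CD4 T cells (-0.37, -0.72 and -0.66) and right of 0 in CD8 T cells.

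The 10 genes highest in takinib were Cxcl2, Lcn2, Ccl3, Saa3, Il1b, Wfdc17, Neat1, Cd14, Cxcl3 and Ifitm1, several of them abundant in activated myeloid cells. Lcn2 had 211 and 0 counts, Ccl3 159 and 0, and Saa3 517 and 6. In takinib CD8 T cells Saa3 was at 3829 CPM and Lcn2 at 1603 CPM, and in takinib B cells at 8106 and 3496 CPM. The 10 lowest were Igfbp7, Col4a1, Sparc, Ctrb1, Plvap, Fgl2, Tmem176a, Ifi27l2a, Cd74 and Clec2d. Igfbp7, Col4a1 and Plvap, genes of endothelial and perivascular cells, had 36, 16 and 11 counts in vehicle and 0 in takinib, while endothelial markers gave 430 CPM, from 2 cells, in vehicle against 18.0 CPM in takinib. Cd74, the MHC class II invariant chain, had 24 and 32 counts. Clec2d, a lectin ligand on lymphocytes, had 16 and 23 counts, a ratio of 0.21 [0.11, 0.42]. The part of other cells' RNA in these values was not tested, and treatment cannot be told apart from library, mitochondrial share and sex of the mice.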

How the data were processed

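Single-cell RNA libraries were analysed from the deposited matrices of unnormalized UMI counts; per the file headers they come from Cell Ranger 4 (vehicle) and 6.1.1 (takinib), while the submitters' processing notes name Cell Ranger 2.1.1 and mm10. The takinib matrix held 34158 barcodes of at least 500 UMIs, the vehicle matrix 704261 unfiltered ones. Median depth of kept cells was 3594.5 UMIs (vehicle) and 3049.5 (takinib). Members, lists and motifs were chosen with earlier results of these data known. Counts were summed per library and set (python 3.11.15, numpy 2.4.6, scipy 1.17.1); log2 ratios used 50 CPM added and a mean of at least 100 CPM. Intervals were exact (Poisson, Clopper-Pearson or conditional). Named genes were the 10 highest and 10 lowest past the fold, without gate, mitochondrial, ribosomal, haemoglobin and immunoglobulin genes, plus list members. Scrublet in scanpy 1.11.5 marked 326 vehicle and 2 takinib cells, so its automatic call did not work for takinib; no cell was removed, and 0 vehicle and 2 takinib CD4 T cells were in the top 6% of scores. Ratios were tested on simulated data.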

Additional observations from a re-analysis of the deposited data

How the results depend on the processing

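No paired analysis was possible because each group is 1 library, and no replicate could be left out. Settings with cells of 1000 to 3000 UMIs, without cells over 1% of another marker list, and outside neutrophils were chosen after seeing the data. The vehicle Foxp3 comparison was not run at 2000 UMIs or at 10% mitochondrial UMIs, where fewer than 2 Foxp3-positive cells remained. The cause of the shifts below was not tested.

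CD4 T cells as a percent of kept cells were 0.0663 (vehicle) and 0.0940 (takinib) at 2000 UMIs and 1000 genes, 0.0841 in vehicle at 10% mitochondrial UMIs, 0.0506 and 0.0373 under a stricter gate, 0.142 and 0.0971 without UMIs of other types, 0.582 and 0.227 at 1000 to 3000 UMIs, and 0.0784 in takinib when thinned before gating. They were 7.65 and 3.28% of barcodes with 2 T cell UMIs, and 0.296% of takinib cells outside neutrophils. The CD4 percent of CD4 and CD8 cells was 35.7 in vehicle at 2000 UMIs and under the stricter gate, where takinib gave 7.04 and the vehicle Foxp3 share was 40.0%.

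Genes past the fold in takinib against vehicle, higher and lower, numbered 233 and 237 at 2000 UMIs, 216 and 324 under the stricter gate, 262 and 217 without UMIs of other types, 463 and 274 with no CPM filter, and 65 and 49 at 200 CPM. The lower count was 245 at 10% mitochondrial UMIs, 162 with 10 CPM added, 188 when thinned and 185 without vehicle Y-linked cells.

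Genes past the fold by Foxp3 in takinib, higher and lower, were 466 and 279 (stricter gate), 1262 and 272 (no other-type UMIs), 1255 and 223 (1000 to 3000 UMIs), 650 and 588 (no filter), 118 and 39 (200 CPM), 1335 and 176 (thinned) and 185 and 165 (centred). The higher count was 667 with per-cell means and 535 without the deepest cell. In vehicle they were 1011 and 278 (no other-type UMIs), 1489 and 1566 (no filter), 202 and 34 (200 CPM), 273 and 267 (centred) and 1020 and 192 (without the deepest cell). The lower count was 320 under the stricter gate, and the higher count 1040 at 1000 to 3000 UMIs and 1347 when thinned.

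Directions that turned in takinib against vehicle were Neat1 (-0.47, stricter gate), Ikzf2 (0.029), Tnfrsf18 (0.0026) and Ccl5 (-0.042) without UMIs of other types, Cd28 (0.021), Maf (0.052) and the interferon median (0.15) at 1000 to 3000 UMIs, Tnfrsf18 (0.47) when thinned and Ikzf2 (0.32) without Y-linked cells. By Foxp3 in takinib, Tnfrsf4 (-0.48) and Neat1 (0.76) turned under the stricter gate. Without UMIs of other types Clec4n, Slc7a2 and Cd38 (each -0.37), AA467197 (-1.11), Tnfrsf4 (-2.42), Fn1 (-1.73) and Tnfrsf18 (-2.07) turned. At 1000 to 3000 UMIs Mmp12, Clec4n and Tnfrsf1b (each -0.55), AA467197 (-2.38), Tnfrsf4 (-1.27), Fn1 and Tnfrsf18 (each -2.51) turned. Thinned cells gave Ikzf2 -0.091 and Tnfrsf1b -1.66. Without the deepest cell Mmp12, Clec4n and Slc7a2 (each -0.22), AA467197 (-0.024), Fn1 (-2.47), Cd38 and Gzmb (each -0.42) and Tnfrsf1b (-1.51) turned, and in the cleaner cells Ifitm1 (0.14). By Foxp3 in vehicle, Ctla4 was -0.070 under the stricter gate, Il2ra -1.12 without UMIs of other types, and with no filter the inhibitory receptor median was -0.26 and the interferon median -0.43.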
